A study of Mus musculus with 16 samples.

Results

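The 7 long non-coding RNA genes described here were followed through bulk RNA sequencing of mouse ventricles: Malat1 and Neat1, which make abundant RNAs of the cell nucleus, and the imprinted genes Meg3, Rian, Mirg, H19 and Kcnq1ot1. They are taken by gene symbol, with no cut on a measured value, though the set was drawn up with earlier results of these data known, and they are 7 of the 33399 genes in the count table. Of the 7 genes, 6 had enough reads to be tested, and Mirg did not. All 16 mice were C57BL/6 wild type and entered the study at 8 weeks of age. The mice with chronic kidney disease (CKD) were 4 males and 4 females that received chow with 0.25% adenine in turns with plain chow over 6 weeks, the high-dose regimen of the study. The controls were 4 males and 4 females on plain chow for 6 weeks. Adenine damages kidney tubules through crystals of its oxidation product, so the model is a diet-induced kidney injury. Each library is 1 mouse's ventricular RNA, with no separation of cell types, and libraries are named here by group and a number that only tells them apart.

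Counts per library ranged from 10203707 to 13626039, and mitochondrially encoded transcripts took 8.45% to 10.3% of them. All 12 cardiomyocyte markers listed had reads in every library, so each held heart muscle RNA. Their summed level was 37995 to 58437 CPM, the reads of a gene scaled to the adjusted size of the library, as set out under the processing. Ventricle was not told apart from atrium with these markers. The library male_CKD 4 stood apart from the rest. It was the lowest of the 16 libraries for Malat1, Rian, H19 and Kcnq1ot1, the highest for Neat1, and the lowest for the summed fibroblast markers, so results below are given with and without it where it weighs on them. The number in the sample titles, whose meaning is not given, was 6 in 10 libraries, and values within those 10 stand beside the results as a check on a possible cohort.

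Malat1 and Neat1 RNAs stay in the nucleus. Malat1 gathers at nuclear speckles, the stores of splicing factors, and the long form of Neat1 is the scaffold of paraspeckles, bodies that hold RNA-binding proteins and certain RNAs. Imprinted genes are transcribed mainly from the allele of 1 parent. In mouse, Meg3, Rian, Mirg and H19 are expressed from the maternal allele and Kcnq1ot1 from the paternal allele, and the strain is inbred, so reads from the parental alleles could not be told apart here. Meg3, Rian and Mirg follow each other on 1 strand of the Dlk1-Dio3 domain, which carries large clusters of small nucleolar RNAs and microRNAs. H19 is a precursor of microRNA miR-675 and neighbours the growth factor gene Igf2, and Kcnq1ot1 runs antisense through the potassium channel gene Kcnq1 and silences neighbouring genes on the paternal chromosome.

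Malat1 and the long form of Neat1 end without a normal poly(A) tail. Their last bases hold U-rich stretches and an A-rich stretch that fold into a triple helix and shield the end from decay. The labels do not say how RNA was selected for the libraries, and a selection on poly(A) could lower the capture of both. Both ends are shown because they mark these as unusual transcripts; capitals mark each run of at least 4 T, then C or GC, then at least 4 T, and each run of at least 4 A, then GC, then at least 4 A. Letters are DNA, read 5′ to 3′ on the RNA strand of GRCm38. The Malat1 stretch lies at chr19:5795982-5796081, minus strand, and is bases 6592 to 6691 of a transcript of 6983 bases. The Neat1 stretch lies at chr19:5824708-5824807, minus strand, and is bases 20672 to 20771 of 20771.
Malat1 3′ element: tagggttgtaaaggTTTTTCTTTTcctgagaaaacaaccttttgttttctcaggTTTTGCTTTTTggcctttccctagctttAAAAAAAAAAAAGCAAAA
Neat1 3′ element: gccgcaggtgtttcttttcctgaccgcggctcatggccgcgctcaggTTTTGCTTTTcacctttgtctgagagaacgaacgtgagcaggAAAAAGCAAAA
Both stretches hold a T-rich run around GC and the A-rich run, and the Malat1 stretch holds another T-rich run around C. The Neat1 stretch also holds tttctttt, left in small letters because too few T stand before its C for the rule. Each stretch was cut to end at the last such A-rich run of its transcript, so its place at the end follows from the cut.

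The imprinted members host 37 mature microRNAs in the RefSeq set for GRCm38.p6, of which 26 lie within Mirg, 6 within Rian, 3 within Meg3 and 2 within H19. A few are shown for what each host carries, with the seed (bases 2 to 8, which pair with target RNAs) in capitals.
H19, miR-675-5p: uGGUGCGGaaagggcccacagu
H19, miR-675-3p: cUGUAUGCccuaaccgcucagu
Meg3, miR-770-5p: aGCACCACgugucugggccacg
Rian, miR-370-3p: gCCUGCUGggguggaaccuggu
Mirg, miR-134-5p: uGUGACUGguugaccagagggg
Mirg, miR-410-3p: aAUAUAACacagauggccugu
Mirg, miR-453: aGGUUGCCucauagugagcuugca
Mirg, miR-496a-5p: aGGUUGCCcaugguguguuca
The last pair share the seed GGUUGCC and differ after it. The libraries were not made for small RNA, and the hosted genes were nearly empty in the table: 2 of the 14 microRNA genes inside Mirg had a row, with 3 reads over all 16 libraries, and 3 of the 13 small nucleolar RNA genes inside Rian had a row, with 4 reads. The counts below are those assigned to the long host genes. How reads that overlap both a host and a hosted gene were treated is not known here.

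Meg3, Rian and Mirg are often described as parts of 1 long maternal transcription unit that starts at the Meg3 promoter. The RefSeq windows before Meg3 (chr12:109540746-109541045, plus strand) and before the annotated Rian start (chr12:109603695-109603994, plus strand), both GRCm38.p6, are shown to set them side by side, since levels of the pair are compared below. Each runs from 250 bases before the annotated start to 50 after it, and capitals mark the CCAAT box, the TATA box as TATAAA, and the first letters of a cyclic AMP element as TGACG, on either strand.
Meg3 window: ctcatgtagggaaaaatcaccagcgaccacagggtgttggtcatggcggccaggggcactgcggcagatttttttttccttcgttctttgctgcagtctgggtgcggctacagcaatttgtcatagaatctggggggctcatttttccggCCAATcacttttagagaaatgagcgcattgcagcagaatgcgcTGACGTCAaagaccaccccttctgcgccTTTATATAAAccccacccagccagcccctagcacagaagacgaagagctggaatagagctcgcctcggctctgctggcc
Rian window: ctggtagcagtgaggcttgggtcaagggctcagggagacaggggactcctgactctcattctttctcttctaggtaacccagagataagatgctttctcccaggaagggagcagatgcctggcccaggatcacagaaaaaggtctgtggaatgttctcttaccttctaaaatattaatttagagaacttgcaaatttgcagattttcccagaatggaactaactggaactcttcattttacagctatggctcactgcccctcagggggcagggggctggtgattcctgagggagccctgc
The Meg3 window held 1 match to CCAAT, 2 overlapping matches to TATAAA and 2 overlapping matches to TGACG, and the Rian window held 0 of each. Of all 32851 promoter windows of this length, 37.4% held CCAAT, 13.6% TATAAA and 20.8% TGACG. A match to these letters is a description and says nothing of whether a factor binds.

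Malat1 and Neat1 were abundant in the ventricle and the imprinted members were not. Malat1 averaged 949 CPM and Neat1 737 CPM over the 16 libraries, which placed them first and second by CPM among the 881 tested long non-coding genes and at ranks 114 and 161 of all 16400 tested genes. Among the 881 by CPM, H19 ranked 38, Rian 116, Meg3 139 and Kcnq1ot1 178. Per kilobase of exon, which corrects for the length of each gene, the mean level was 136 CPM per kilobase for Malat1, 35.5 for Neat1 and 13 for H19. It was 0.557 for Rian and 0.478 for Meg3. It was 0.0687 for Kcnq1ot1 and 0.0685 for Mirg. By this measure the ranks among the 881 were 5 for Malat1, 17 for Neat1 and 54 for H19. They were 622 for Rian, 667 for Meg3 and 881, the last place, for Kcnq1ot1. Among all tested genes Malat1 ranked 527 and Neat1 1737. Malat1 stood above Neat1, Neat1 above H19, H19 above Rian, and Meg3 above Kcnq1ot1 in 16 of 16 libraries, and the ranges of these neighbours over the libraries did not overlap. Rian was above Meg3 in 11 of 16 libraries and Kcnq1ot1 above Mirg in 10 of 16, and the ranges of these neighbours overlapped, so their order is not set beyond the spread. The level of Kcnq1ot1 per kilobase rests on a single annotated exon of 93092 bases, so reads from any part of that stretch on either strand may enter it. That of Neat1 rests on 20771 bases, with its short and long forms counted together, so its order against Malat1 depends on that length. By CPM alone, the ratio of Malat1 to Neat1 ran from 0.356 in male_CKD 4 to 2.62 in male_control 2.

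**Figure D1:**
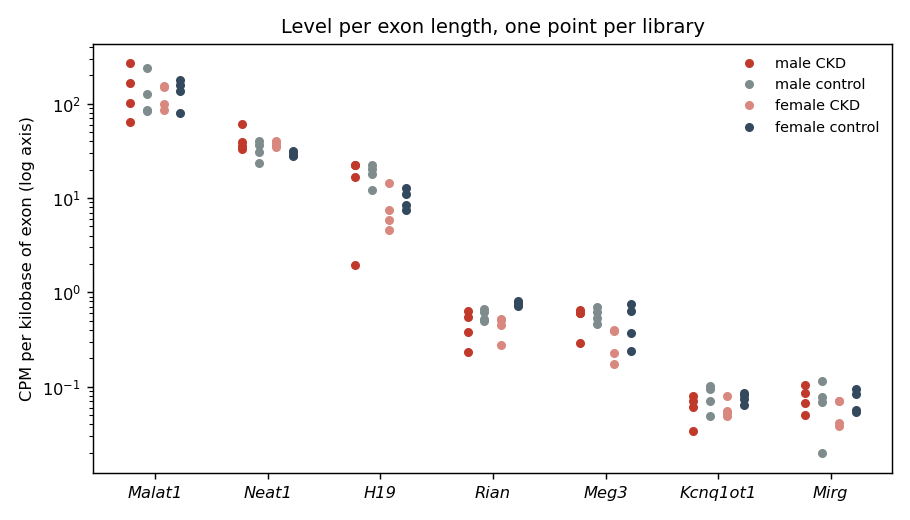
Level of each gene per kilobase of exon (CPM per kilobase, log axis) in each of the 16 libraries, 4 per group, with genes ordered by their mean. Malat1 (mean 136), Neat1 (35.5) and H19 (13) form separate steps, while Rian and Meg3 share a range, as do Kcnq1ot1 and Mirg.

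H19, Malat1 and Meg3 varied from mouse to mouse more than a typical gene did, while Neat1 and Kcnq1ot1 were close to one. The coefficient of variation of the CPM over the 16 libraries was 52.0% for H19, 42.5% for Malat1, 38.7% for Meg3 and 36.4% for Mirg. It was 30.8% for Rian, 26.4% for Kcnq1ot1 and 23.5% for Neat1, against a median of 22.5% over all tested genes. Of the tested genes 4.6% varied more than H19 and 12.3% more than Malat1. That share was 17.3% for Meg3, 30.3% for Rian, 39.5% for Kcnq1ot1 and 47.1% for Neat1. The highest library held 11.4 times the H19 level of the lowest, 4.33 times the Meg3 level and 4.14 times the Malat1 level. For Neat1 that ratio was 2.61. The lowest H19 level, 4.83 CPM, was that of male_CKD 4, and the next lowest was 11.3 CPM in female_CKD 2. Mirg had only 2 to 10 reads per library, so counting error weighs on its spread.

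Malat1 (ENSMUSG00000092341.2; chr19:5795690-5802672, minus strand, a lincRNA with all annotated exons merging into 1 block) had 1863, 702, 1169 and 450 CPM in male CKD mice, against 586, 1656, 593 and 885 CPM in male controls. It had 686, 1075, 1055 and 603 CPM in female CKD mice, against 1248, 1111, 552 and 957 CPM in female controls. High and low mice occurred in every group, and the groups overlapped in both sexes. The means were 950 ± 449 CPM in CKD mice and 949 ± 385 CPM in controls (SD, n = 8 each). The log2 fold change was -0.0044 (SE 0.28, adjusted p = 0.996), and its 95% interval ran from -0.59 to 0.58, so a change within those bounds was not detectable with this spread. The sign of so small a value turned with the setting: without male_CKD 4 it was 0.10 (SE 0.26). Within the 10 libraries of title number 6 it was 0.13 (SE 0.31).

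Neat1 (ENSMUSG00000092274.2; chr19:5824708-5845478, minus strand, a lincRNA with 1 exon block of 20771 bases) had 822, 740, 684 and 1263 CPM in male CKD mice, against 484, 632, 826 and 761 CPM in male controls. It had 807, 840, 717 and 751 CPM in female CKD mice, against 651, 632, 582 and 592 CPM in female controls. All 4 female CKD mice lay above all 4 female controls, while the male groups overlapped. The means were 828 ± 184 CPM in CKD mice and 645 ± 107 CPM in controls (SD, n = 8 each), and 8 of 8 CKD mice lay above the mean of the controls of their sex. One of them, male_CKD 3, did so narrowly, at 684 CPM against a male control mean of 676 CPM. For such counts, here and below, no share over all genes is given. The log2 fold change was 0.36 (SE 0.12), with a 95% interval of 0.098 to 0.62 and an adjusted p of 0.184 in edgeR's quasi-likelihood test, so it missed the threshold of 0.05. Males had 0.38 (SE 0.18), and females had 0.34 (SE 0.18). The highest value, 1263 CPM, came from male_CKD 4, and without that library the male value was 0.14 (SE 0.15) and the value over both sexes 0.25 (SE 0.10, adjusted p = 0.257). Within the 10 libraries of title number 6 it was 0.37 (SE 0.10, adjusted p = 0.165). The short and long forms of Neat1 share their first bases and are counted together, so which form carried the reads is not known from these counts.

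The ratio of Malat1 to Neat1 CPM ran from 0.356 in male_CKD 4 to 2.62 in male_control 2. It was 0.85, 1.28, 1.47 and 0.804 in female CKD mice and 1.92, 1.76, 0.948 and 1.62 in female controls, with overlap. The genes are neighbours on chromosome 19, and the correlation of their levels from mouse to mouse did not pass the threshold (Pearson r = -0.21 over 16 libraries, permutation adjusted p = 0.664). Without male_CKD 4, r was 0.15, and within title number 6 it was 0.46.

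**Figure D2:**
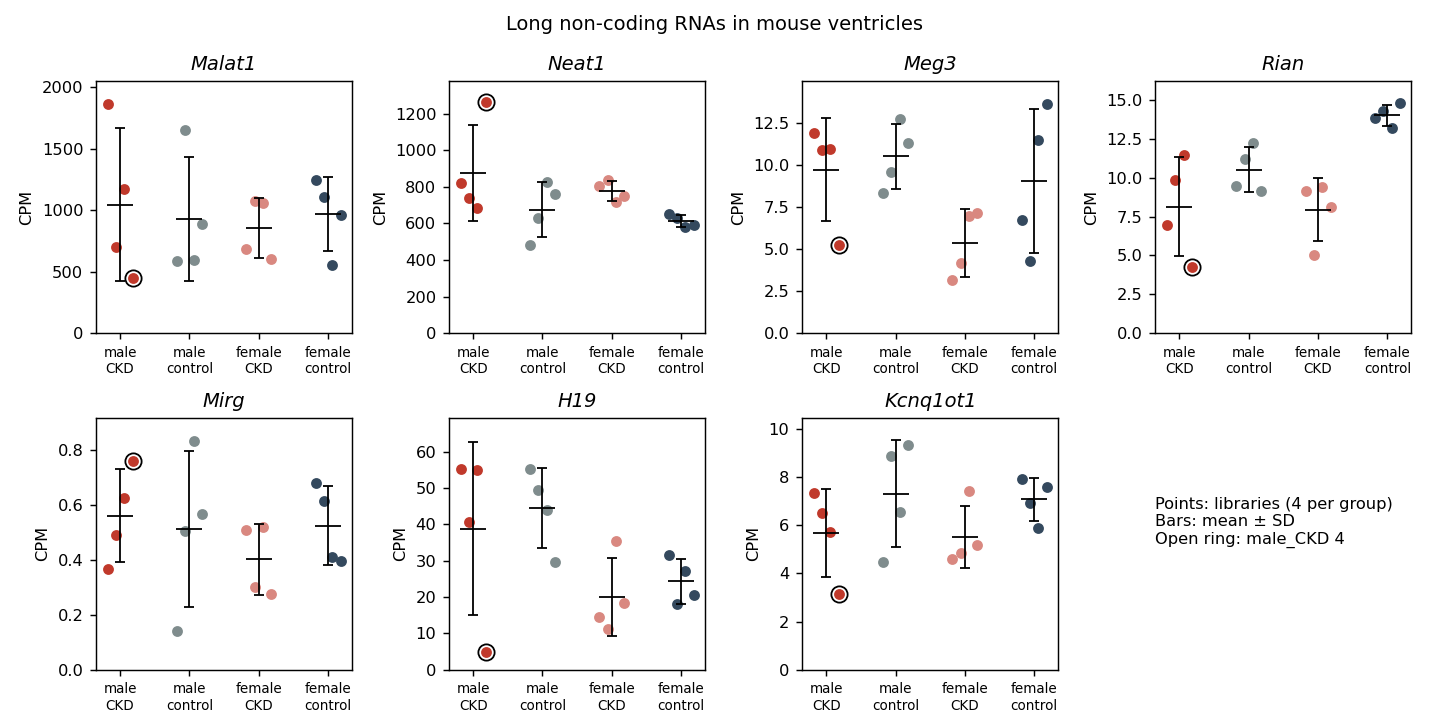
Level of each gene in CPM in the 4 libraries of each group, with bars for the mean and SD; the open ring marks male_CKD 4. Female CKD mice sit above female controls for Neat1 (717 to 840 against 582 to 651 CPM) and below them for Rian (5.05 to 9.41 against 13.2 to 14.8 CPM), and the other groups overlap within each sex.

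In the Dlk1-Dio3 domain, Meg3 (ENSMUSG00000021268.17; chr12:109541001-109571726, plus strand, a lincRNA with 18089 exon bases) had 11.9, 10.8, 10.9 and 5.21 CPM in male CKD mice, against 8.34, 9.59, 12.7 and 11.3 CPM in male controls. It had 3.14, 4.14, 6.97 and 7.12 CPM in female CKD mice, against 6.71, 4.29, 11.5 and 13.6 CPM in female controls. The groups overlapped in both sexes. The female means were 5.34 ± 2.01 CPM with CKD and 9.02 ± 4.27 CPM in controls (SD, n = 4 each), and the log2 fold change was -0.75 (SE 0.35, adjusted p = 0.595). The male value was -0.11 (SE 0.34), and 0.090 (SE 0.35) without male_CKD 4. Over both sexes it was -0.42 (SE 0.25, adjusted p = 0.431), with a 95% interval of -0.94 to 0.11. Within title number 6 it was -0.23 (SE 0.31).

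Rian (ENSMUSG00000097451.10; chr12:109603940-109661716, plus strand, a processed transcript with 18234 exon bases and 13 annotated small nucleolar RNA genes within it) had 6.96, 9.87, 11.4 and 4.26 CPM in male CKD mice, against 9.48, 11.2, 12.2 and 9.14 CPM in male controls. It had 9.17, 5.05, 9.41 and 8.14 CPM in female CKD mice, against 13.9, 14.3, 13.2 and 14.8 CPM in female controls. The 4 female CKD mice all lay below the 4 female controls, and the male groups overlapped. The means were 8.04 ± 2.46 CPM in CKD mice and 12.3 ± 2.15 CPM in controls (SD, n = 8 each), and 7 of 8 CKD mice lay below the mean of the controls of their sex. The log2 fold change was -0.59 (SE 0.18), with a 95% interval of -0.97 to -0.22 and an adjusted p of 0.136. It missed the threshold in edgeR and passed it in DESeq2 (-0.59, adjusted p = 0.0483), which passed 398 of 16400 genes (2.43%). Females had -0.81 (SE 0.25, adjusted p = 0.455), and males had -0.37 (SE 0.25, adjusted p = 0.848). The difference between the sexes was -0.45 (SE 0.35, unadjusted p = 0.219 in edgeR's quasi-likelihood test), so a difference between the effects was not shown. Without male_CKD 4 that difference was -0.65 (SE 0.29, adjusted p = 0.9999), with an unadjusted p of 0.0406 in the same edgeR test. Without male_CKD 4 the male value was -0.17 (SE 0.21) and the value over both sexes -0.51 (SE 0.16, adjusted p = 0.162). Within title number 6 it was -0.56 (SE 0.21, adjusted p = 0.303).

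Mirg (ENSMUSG00000097391.8; chr12:109729764-109749460, plus strand, a lincRNA with 7292 exon bases) was at the floor of detection. It had 5, 6, 7 and 8 reads in male CKD mice, against 2, 7, 10 and 6 reads in male controls. It had 6, 3, 7 and 3 reads in female CKD mice, against 8, 7, 5 and 4 reads in female controls. With the filter on low counts removed its log2 fold change was -0.094 (SE 0.33, adjusted p = 0.927), a value these few reads leave wide.

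Meg3 and Rian are neighbours on 1 strand, and their ratio is given by sex as a description, with no test. The ratio of Meg3 to Rian CPM was 1.71, 1.10, 0.953 and 1.22 in male CKD mice and 0.88, 0.858, 1.04 and 1.24 in male controls. It was 0.343, 0.82, 0.74 and 0.875 in female CKD mice and 0.485, 0.301, 0.87 and 0.92 in female controls. The female ratios overlapped the male ones narrowly, and the CKD and control ratios overlapped in each sex. The transcripts differ in GC content (49.2% for Meg3 and 35.8% for Rian), and the libraries of the sexes differ in how levels move with GC, whose part in the ratio was not tested. Across the 16 libraries the pair correlated with r = 0.38 (permutation adjusted p = 0.263). Within the sexes r was 0.50 in the 8 females and 0.76 in the 8 males. It was 0.30 without male_CKD 4 and 0.19 within title number 6. The protein-coding genes of the domain gave few reads: Dlk1 had 0 to 3 per library, Rtl1 0 to 6 and Dio3 0 to 2.

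H19 (ENSMUSG00000000031.16; chr7:142575529-142578143, minus strand, a lincRNA with 2460 exon bases) had 55.2, 40.6, 54.9 and 4.83 CPM in male CKD mice, against 55.2, 49.6, 43.9 and 29.6 CPM in male controls. It had 14.5, 11.3, 35.5 and 18.5 CPM in female CKD mice, against 31.7, 18.1, 27.2 and 20.5 CPM in female controls. The groups overlapped in both sexes, and the low value in male_CKD 4 rested on 51 reads. The means were 29.4 ± 19.8 CPM in CKD mice and 34.5 ± 13.6 CPM in controls (SD, n = 8 each). The log2 fold change was -0.24 (SE 0.34, adjusted p = 0.751), with a 95% interval of -0.95 to 0.47. Without male_CKD 4 it was -0.068 (SE 0.22). The male value was -0.20 (SE 0.49) with that library and 0.17 (SE 0.33) without it.

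Fibroblast markers are given beside H19, since the library lowest in H19 was also lowest in them. All 12 listed markers had reads in every library, and their summed level was 571 CPM in male_CKD 4, where H19 was 4.83 CPM, and 2092 to 2436 CPM in the other 3 male CKD mice. The sum ran from 2083 to 2652 CPM in male controls. It ran from 1456 to 2420 CPM in female CKD mice and from 1975 to 2381 CPM in female controls. Of the 12 markers 0 passed the adjusted threshold in CKD against control and 12 had negative log2 fold changes, with a median of -0.43 against 0.0017 over all tested genes. In whole tissue, fewer cells of a type and less RNA per cell cannot be told apart, and the part of cell makeup in the H19 values was not tested. Markers of other cells stand beside the negative values of Rian, Meg3 and Kcnq1ot1 as well. Negative log2 fold changes were found for 12 of 14 endothelial, 10 of 11 mural, 8 of 10 macrophage, 6 of 6 tested lymphocyte and 6 of 6 tested nerve markers, and positive ones for 10 of 12 cardiomyocyte markers, with 0 past the adjusted threshold in each list. Their part in the values of the members was not tested. The endothelial, mural, macrophage and lymphocyte sums were also lowest in male_CKD 4, at 1207, 756, 195 and 10.8 CPM. The cardiomyocyte sum was highest there, at 58437 CPM. The nerve sum was 14.5 CPM in male_CKD 4 and lowest in female_CKD 2, at 11.9 CPM. All these direction counts, those of fibroblasts among them, include male_CKD 4 and were not repeated without it, so they may lean on that library.

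**Figure D3:**
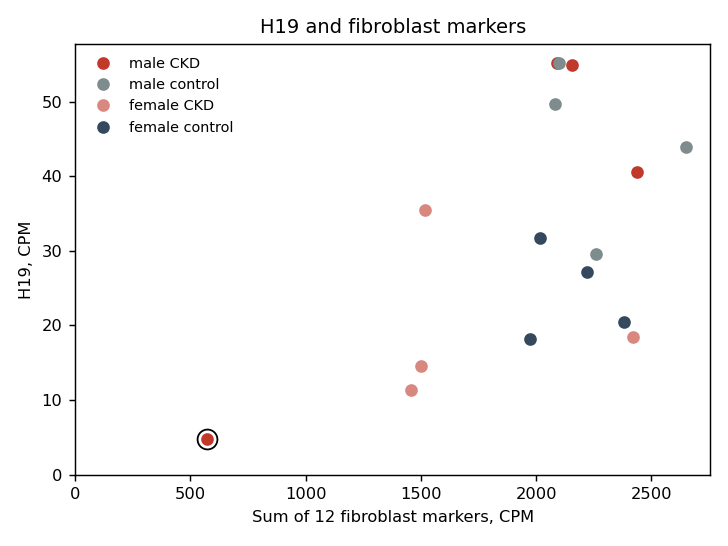
H19 level (CPM) against the summed level of 12 fibroblast markers (CPM) in each of the 16 libraries, coloured by group; the open ring marks male_CKD 4. That library is lowest on both axes (4.83 CPM for H19, 571 CPM for the markers), and among the others male mice lie mostly above female mice in H19 at like marker levels.

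Igf2, the paternally expressed neighbour of H19, was close to silent, with 0 to 17 reads per library and means of 0.485 ± 0.419 CPM in CKD mice and 0.788 ± 0.547 CPM in controls (SD, n = 8 each). Its log2 fold change was -0.67 (SE 0.54, adjusted p = 0.571). Ins2, next to it, had 0 to 1 reads per library. The Igf2 and H19 pair is treated further with the other correlations.

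Kcnq1ot1 (ENSMUSG00000101609.2; chr7:143203458-143296549, minus strand, annotated as antisense) had 7.33, 6.52, 5.72 and 3.13 CPM in male CKD mice, against 4.49, 8.87, 6.56 and 9.33 CPM in male controls. It had 4.59, 4.85, 7.41 and 5.18 CPM in female CKD mice, against 7.90, 6.92, 5.90 and 7.59 CPM in female controls. The groups overlapped in both sexes, with 6 of 8 CKD mice below the mean of the controls of their sex. The means were 5.59 ± 1.47 CPM in CKD mice and 7.20 ± 1.58 CPM in controls (SD, n = 8 each). The log2 fold change was -0.36 (SE 0.18, adjusted p = 0.355), with a 95% interval of -0.73 to 0.023, and it was -0.36 (SE 0.26) in each sex. Without male_CKD 4 it was -0.27 (SE 0.16), and within title number 6 it was -0.19 (SE 0.21).

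Kcnq1, the potassium channel gene that Kcnq1ot1 crosses, had 20.1 to 57.2 CPM over the libraries, and Cdkn1c, a cell cycle inhibitor of the same domain, 3.33 to 13.8 CPM. Exons of Kcnq1 and the antisense transcript share 121 bases. No source used here says if counting was stranded, so reads from opposite strands cannot be told apart there. If it was not, reads of unspliced Kcnq1 RNA could also enter the Kcnq1ot1 exon of 93092 bases outside the shared bases. Overlap with annotated exons of the opposite strand covered 1.2% of the exon bases of Kcnq1ot1 and 6.79% of those of Meg3. It covered 6.49% of those of Malat1, 5.73% of those of H19 and 0% of those of Neat1, Rian and Mirg. Overlap with introns is not part of these shares.

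Taking the 6 tested members over all mice, 0 passed the adjusted threshold in CKD against control, where 14 of 16400 genes (0.0854%) did. At an unadjusted p under 0.05 there were 2 of 6 (Neat1 with a positive and Rian with a negative value), against 2519 genes (15.4%). In males 0 of 6 and in females 0 of 6 passed the adjusted threshold, where 0 (0%) and 9 genes (0.0549%) did. At an unadjusted p under 0.05 there were 0 of 6 in males (6.88% of all genes) and 2 of 6 in females, Meg3 and Rian (8.34% of all genes). Female groups that did not overlap were found for 1 member with CKD higher (Neat1; 5.08% of all genes) and for 1 with CKD lower (Rian; 2.49%). In males 0 members had groups that did not overlap (3.2% of all genes in either direction). For the difference of the CKD effect between the sexes 0 of 6 members passed, as did 0 of all genes (0%), with 0 of 6 members and 1.68% of all genes at an unadjusted p under 0.05. For Meg3 that difference was -0.64 (SE 0.49).

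**Figure D4:**
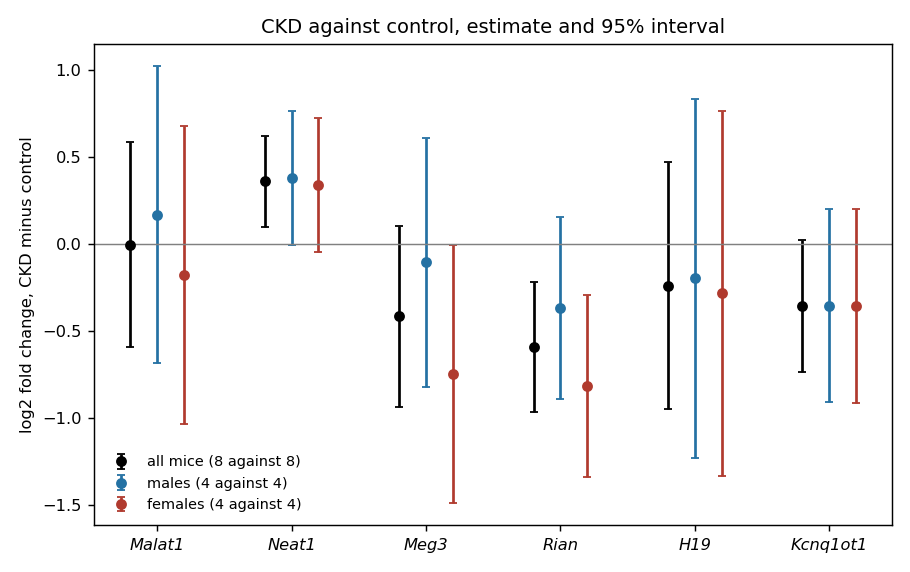
Log2 fold change of CKD minus control for the 6 tested genes with its 95% interval, over all mice (8 against 8) and in males and females (4 against 4 each). The intervals over all mice leave 0 outside for Neat1 (0.098 to 0.62) and Rian (-0.97 to -0.22) before adjustment over all genes, and those of Malat1 and H19 are wide.

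Between the sexes, H19 and Meg3 had lower mean values in females in both arms, without passing the threshold. H19 averaged 20 ± 10.8 CPM in female CKD mice and 38.9 ± 23.7 CPM in male CKD mice, and 24.4 ± 6.21 CPM in female controls and 44.6 ± 11 CPM in male controls (SD, n = 4 each). Its log2 fold change, female minus male, was -0.96 (SE 0.50, adjusted p = 0.364) among CKD mice and -0.87 (SE 0.49, adjusted p = 0.639) among controls. Without male_CKD 4, which pulls the male CKD mean down, the value among CKD mice was -1.35 (SE 0.33, adjusted p = 0.222). With GC and length trends taken out of each library, the H19 value was -0.72 (SE 0.49) among CKD mice and -0.66 (SE 0.49) among controls. Meg3 averaged 5.34 ± 2.01 CPM in female CKD mice and 9.71 ± 3.03 CPM in male CKD mice, and the log2 fold change was -0.86 (SE 0.35, adjusted p = 0.287), or -1.09 (SE 0.36, adjusted p = 0.229) without male_CKD 4. Among controls it was -0.22 (SE 0.34). With GC and length trends taken out, the Meg3 value among CKD mice was -0.87 (SE 0.34, adjusted p = 0.359). The female minus male value was not shown to differ between CKD mice and controls, with a difference of -0.088 (SE 0.70) for H19 and -0.64 (SE 0.49) for Meg3.

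Rian went the other way among controls, at 14 ± 0.673 CPM in females and 10.5 ± 1.45 CPM in males (SD, n = 4 each). All 4 female controls lay above all 4 male controls, a pattern that 1.9% of all genes had in that direction; the log2 fold change was 0.42 (SE 0.24, adjusted p = 0.639). With GC and length trends taken out of each library it was 0.20 (SE 0.22). Rian has the lowest GC content of the members, and the Spearman correlation of library levels with GC ran from -0.471 to 0.145 in female controls and from 0.00959 to 0.548 in male controls. Among CKD mice it was -0.031 (SE 0.25). Over the tested members, 0 of 6 passed the adjusted threshold among CKD mice, where 7 genes (0.0427%) did, and 0 of 6 among controls, where 6 genes (0.0366%) did. At an unadjusted p under 0.05 there were 1 of 6 among CKD mice (Meg3; 15% of all genes) and 0 of 6 among controls (6.84% of all genes).

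Of 24 pairs of genes whose levels were correlated across the 16 libraries (21 pairs of members and 3 pairs of a member with a gene of its own domain), 4 passed the adjusted threshold by Pearson r and 0 by Spearman rho. Neat1 and Rian had r = -0.74 (permutation p adjusted over the 24 pairs 0.0247) and rho = -0.71 (adjusted 0.0643). The value was -0.77 without the 2 libraries farthest from the median Neat1 level, -0.55 without male_CKD 4, -0.71 in the 8 males and -0.90 in the 8 females. It was -0.60 within title number 6 and -0.57 with the group means removed. For both genes the female CKD and control groups did not overlap, so the value in females includes that gap. H19 and Igf2 had r = 0.69 (adjusted 0.0318) and rho = 0.54 (adjusted 0.201), with r = 0.48 without the 2 libraries farthest out and 0.58 without male_CKD 4. Meg3 and H19 had r = 0.65 (adjusted 0.0360) and rho = 0.56 (adjusted 0.201), with r = 0.56 without the 2 libraries farthest out. Malat1 and Kcnq1ot1 had r = 0.66 (adjusted 0.0360) and rho = 0.60 (adjusted 0.201), with r = 0.55 without the 2 libraries farthest out. With the group means removed, r was 0.61 for H19 and Igf2, 0.56 for Meg3 and H19 and 0.74 for Malat1 and Kcnq1ot1. The permutations shuffled all 16 libraries across sex and arm, so differences between the groups enter the p-values. No p-value was computed with the group means removed.

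The Spearman correlation of a library's levels, relative to the mean of all libraries, with the GC content of genes ran from -0.492 to 0.548, and the members span 35.8% GC (Rian) to 55.8% (H19) in their longest transcripts. With GC and length trends taken out of each library, none of the 4 pairs passed: r was -0.33 for Neat1 and Rian (adjusted p = 0.311), 0.63 for H19 and Igf2 (0.0553), 0.46 for Meg3 and H19 (0.220) and 0.38 for Malat1 and Kcnq1ot1 (0.265). The CKD values of Neat1 (0.38, SE 0.16) and Rian (-0.66, SE 0.16) kept their size under that correction. Before that correction Kcnq1ot1 correlated with Kcnq1 at r = -0.12 (adjusted 0.746) and after it at r = -0.48 (adjusted 0.208). Without the correction, r for this pair was 0.22 in females, -0.61 in males and 0.17 without male_CKD 4. With Cdkn1c the value was 0.29 (adjusted 0.449) before the correction and 0.21 (adjusted 0.605) after it.

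**Figure D5:**
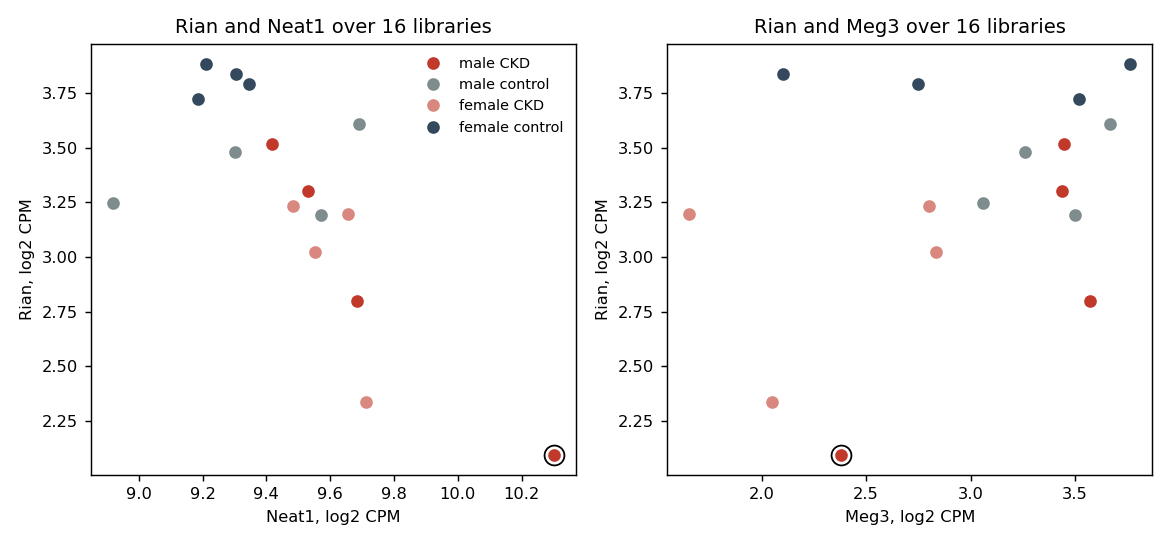
Rian level against Neat1 level (left) and against Meg3 level (right), both as log2 CPM, in each of the 16 libraries coloured by group; the open ring marks male_CKD 4. Rian is lower where Neat1 is higher (r = -0.74), while Rian and Meg3 scatter (r = 0.38), with female controls high in Rian over a wide range of Meg3.

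The protein-coding genes most like each member across the 16 libraries were taken from 11475 genes by Pearson r of log2 CPM, given as a description of libraries that share depth and base composition effects. Those of Malat1 were Xbp1, a transcription factor of the unfolded protein response (r = 0.83), and the endoplasmic reticulum chaperones Hyou1 (0.83) and Pdia3 (0.83). Those of Neat1 were Cdk11b, a cyclin-dependent kinase (0.89), the nuclear protein gene Akap8l (0.89) and the mitochondrial protease gene Parl (0.89). Those of Meg3 were the ubiquitin ligase gene Lnx2 (0.97), Akna (0.97) and Sec14l1 (0.95). Those of Rian were Phf11d (0.93), Nipsnap3b (0.92) and the integrin gene Itga6 (0.92), and those of H19 were Mcc (0.92), the TGF-beta receptor gene Tgfbr2 (0.92) and Rem1 (0.91), which encodes a small GTPase. For Kcnq1ot1 they were Tpm3-rs7 (0.85), the adaptor gene Pag1 (0.84) and Heg1 (0.84), which acts in endothelial junctions. With male_CKD 4 left out the values ran from 0.73 to 0.97.

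Other genes of the pathways of these RNAs are given as counts in CKD against control. The neighbours in the imprinted domains had few tested genes: 3 of 7 in the Dlk1-Dio3 domain, 3 of 7 in the Igf2 and H19 domain and 7 of 11 in the Kcnq1 domain, with 0 past the adjusted threshold in each and medians of -0.012, 0.037 and -0.081. The lowest p values there belonged to Wars (-0.15, SE 0.079), Mrpl23 (0.27, SE 0.14) and Nap1l4 (0.19, SE 0.074), with adjusted p = 0.373, 0.376 and 0.243. Of 39 other imprinted genes 30 were tested and 0 passed; 5 had positive and 2 negative values at an unadjusted p under 0.05 (15.4% of all tested genes had such a p in either direction), and the median was 0.068. The lowest p values were those of Peg3, a zinc finger gene (27.3 ± 5.36 CPM in CKD mice and 19.3 ± 4.43 CPM in controls, log2 fold change 0.51, SE 0.14, adjusted p = 0.117), and Zdbf2 (1.14, SE 0.33, adjusted p = 0.125).

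Of 24 genes for proteins of paraspeckles, the bodies that Neat1 scaffolds, 1 rose with CKD. It was Rbm3, an RNA-binding protein induced by cold, with 152 ± 26.1 CPM in CKD mice and 80.7 ± 10.1 CPM in controls (SD, n = 8 each; log2 fold change 0.91, SE 0.11, adjusted p = 0.00192). With it, 5 had positive values and 0 negative at an unadjusted p under 0.05 (15.4% of all tested genes in either direction); 20 of the 24 were positive and the median was 0.090, against 0.0017 over all tested genes. The list was compiled with results of these data known and is not independent evidence. Of 23 genes of nuclear speckle proteins, the bodies where Malat1 gathers, 0 passed, 2 had positive and 1 a negative value at an unadjusted p under 0.05 (15.4% of all tested genes), and the median was -0.00232. The lowest p values were those of the splicing factors Srsf5 (0.53, SE 0.12, adjusted p = 0.0946) and Srsf6 (-0.21, SE 0.094, adjusted p = 0.282).

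Of 37 other long non-coding genes 30 were tested and 0 passed. At an unadjusted p under 0.05 there were 5 positive and 0 negative, where 15.4% of all tested genes had such a p. Of the 30, 22 were positive and the median was 0.12. Mir22hg, the host of miR-22, had 31.4 ± 16 CPM in CKD mice and 16.7 ± 4.26 CPM in controls (log2 fold change 0.93, SE 0.24, adjusted p = 0.103), and Snhg14, the imprinted host of small nucleolar RNAs at the Ube3a gene, 0.52 (SE 0.17, adjusted p = 0.153). Since Malat1 and long Neat1 lack a normal tail, transcripts that mostly lack one were read as well: 4 of 14 were tested, 0 passed, and the median was 0.25, with Hist1h1c and Hist1h4h both at 0.28 (SE 0.14 and 0.15). The part of RNA selection in the Malat1 and Neat1 values was not tested.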

How the data were processed

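RNA was isolated with the RNeasy Plus Mini kit and sequenced as paired-end reads on a HiSeq2500, per the labels' protocols. The table the authors deposited holds raw, whole-number counts for each gene. Per the submitters' processing notes the tools included STAR 2.6.1d, featureCounts of Subread 1.6.3 and DESeq2 1.30.1, with mm10 (GRCm38). The annotation release, strand setting and treatment of multiply mapped reads were not stated in the labels or notes. Symbols, coordinates and exon lengths came from GENCODE M21, which matched 33367 of 33399 identifiers.

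Genes were kept by filterByExpr (minimum count 10, minimum total 15), libraries scaled by TMM, and CKD compared with control in edgeR 4.0.16 (R 4.3.3) by the quasi-likelihood F test, two-sided, with sex as a covariate. Effects within a sex or arm and their difference were contrasts of a 4-group model. P-values were adjusted by Benjamini-Hochberg over the 16400 tested genes, with a threshold of 0.05. The median SE of the CKD log2 fold change was 0.149, and the common biological variation (a CV) 0.225. CPM are counts scaled to each library's total over the kept genes, multiplied by its TMM factor. That factor was lowest in male_CKD 4, at 0.877, which raises the CPM of that library above a scaling by total alone. The log2 CPM used for correlations had a prior count of 2, and each correlation had 100000 permutations. The fits were checked on simulated counts. Labels give each library its own title but do not say more on litters or cages, so p-values measure the spread between these mice.

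Members and gene lists were chosen with earlier results of these data known. Genes named beside the members were the listed ones past the threshold or else those with the lowest p, 2 a list with members counted, and the 3 genes most alike to each member. Rn7sk was named outside that rule, for its low level. Alternatives were DESeq2 1.42.0, limma-voom (limma 3.58.1), other scalings and filters, the title number as a factor or held at 6, 1 surrogate variable (sva 3.50.0), removal of GC and length trends (lowess span 0.3), no sex term, fewer libraries and each library left out.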

Additional observations from a re-analysis of the deposited data

Results flagged for a closer look

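Of 28 groups of 4 libraries (7 genes in 4 groups), 1 held a library far from the others, and chance gives about 1 in 20. Meg3 in male_CKD 4 was 5.21 CPM, against 10.8 to 11.9 CPM in the other 3 male CKD mice. That library was also the lowest of the 16 for Rian, Malat1, H19 and Kcnq1ot1.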

How the results depend on the processing

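Across the alternative settings 0 of 6 tested members passed the adjusted threshold in CKD against control, except that DESeq2 passed 1 (Rian, -0.59, adjusted p = 0.0483), with 2.43% of all genes. Over all other settings and with any 1 library left out Rian stayed negative and Neat1 positive. The log2 fold change of Malat1 had no stable sign: it was 0.054 in limma-voom, 0.13 within title number 6, 0.000248 with GC and length trends removed, 0.00261 with no sex term and 0.15 without male_CKD 4 and female_control 2. With each library left out in turn it ran from -0.24 to 0.16, and in males from -0.29 to 0.59. In males Meg3 turned to 0.16 in limma-voom, 0.0919 with 1 surrogate variable and 0.0907 without the pair male_CKD 4 and female_control 2 (-0.24 to 0.090 with single libraries left out). H19 turned to 0.0631 in limma-voom and 0.17 without that pair (-0.42 to 0.17). Female minus male, Meg3 in controls was 0.36 with the surrogate variable and 0.00199 without that pair (-0.47 to 0.014). Rian in CKD mice was 0.0326 with the title number as a factor and 1.03e-05 with the surrogate variable (-0.27 to 0.18). Among CKD mice limma-voom passed 2 members, female minus male: Meg3 (-1.21, adjusted p = 0.0364) and H19 (-1.43, adjusted p = 0.0375), where it passed 9.48% of all genes. Over the alternative settings other than single libraries left out, these values ran from -1.21 to -0.22 for Meg3 and from -1.43 to -0.71 for H19. Pairs past the threshold were 4 when adjusted over 24 pairs. RLE scaling gave 7, but there the adjustment ran over the 18 pairs without Mirg, and TMM values adjusted over those 18, an alternative chosen after seeing the data, gave 7 as well. With GC and length trends removed, over the same 18 pairs, 0 passed, with r of -0.33, 0.63, 0.46 and 0.38 for the pairs named in the text. Of the gene lists, paraspeckle genes past the threshold were 1 in the main edgeR test, 4 in DESeq2 and 2 in limma-voom. Other imprinted genes were 0, with 3 in DESeq2, 1 with the title number as a factor and 1 without female_CKD 4. Nuclear speckle genes were 0, with 1 in each of DESeq2, limma-voom and the fit with the title number, and other long non-coding genes 0, with 1 in DESeq2, 1 with no filter and 3 with the title number. Of all genes, these settings passed 2.43% (DESeq2), 1.21% (limma-voom), 1.43% (title number), 0.159% (no filter) and 0.287% (without female_CKD 4). The cause of the other shifts was not tested. With each library left out, the Neat1 value ran from 0.25 to 0.41, Rian from -0.70 to -0.50, Meg3 from -0.52 to -0.30, H19 from -0.43 to -0.068 and Kcnq1ot1 from -0.46 to -0.27, and the count of members past the threshold was 0 throughout. No paired analysis was possible because replicate numbers only follow the order of the records. Depth limits Mirg (2 to 10 reads) and Igf2 (0 to 17 reads), and spread between mice limits Malat1 and H19.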
